A study of Mus musculus with 6 samples.

Results

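A set of 10 genes around the stress regulator Ddit4 and the transcription factor ATF4 was followed in total RNA from mice. They are Ddit4, Ddit3, Atf4, Trib3, Chac1, Asns, Sesn1, Sesn2, Psat1 and Phgdh, taken by their GENCODE vM21 symbols, and they make up 10 of the 46078 genes in each count table. The set was chosen by the Ddit4 values of these same libraries, which were known to be higher in JMML, so the Ddit4 difference is given as a description with no test, and the question asked of the other 9 is whether they differ with it. All 10 passed the filter on low counts. The 6 libraries form 2 groups of 3, one labelled JMML, for juvenile myelomonocytic leukemia, and one labelled wild type (WT). The series title calls the animals a dual-age-specific mouse model of sustained fetal blood formation, and JMML is a childhood blood cancer with an excess of monocytic and granulocytic cells. The labels give no tissue, age, strain, allele or treatment for either group, so what the groups share is not stated, and they do not say whether replicates are separate animals. P-values therefore measure the spread between these samples.

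ATF4 is the effector of the integrated stress response. Stress kinases phosphorylate the initiation factor eIF2, most translation slows, and the Atf4 message is translated more, so that its protein can rise without its mRNA. ATF4 then switches on genes of amino acid supply and of stress feedback, among them Asns, Psat1, Phgdh, Chac1, Trib3 and Ddit3. Ddit4 and the sestrins restrain the growth kinase complex mTORC1. Ddit4 is known to respond to ATF4, to hypoxia, to glucocorticoids and to p53, and Sesn1 and Sesn2 are known p53 targets, with Sesn2 also induced by ATF4.

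The promoters are shown because the question turns on the site that ATF4 shares with C/EBP partners. All 10 members matched RefSeq promoter windows of 300 bases on GRCm38.p6, 250 before and 50 after the start, in 12 windows. The motif TGATGNAA, read on both strands as TGATGNAA or TTNCATCA, was present in the windows of 3 members, Trib3, Chac1 and Asns, and in those of 4.51% of 27025 genes. A match is a description of letters and not evidence of binding. The 3 windows are given 5′ to 3′ on the gene's strand, with the motif in capitals. That of Trib3 (chr2:152344011-152344310, minus strand) holds it from base 15 after the start, that of Chac1 (chr2:119350992-119351291, plus strand) from base -193, and that of Asns (chr6:7693160-7693459, minus strand) from base -23. No TGATGNAA lies in the Ddit4 window (chr10:59951721-59952020, minus strand), which is shown with its 1 copy of ACGTG, the core of hypoxia response elements, in capitals from base -187. ACGTG or its reverse CACGT was present in 4 members (Asns, Ddit3, Ddit4 and Psat1) and in 21.8% of genes, and the motifs searched do not overlap in these windows.
Trib3: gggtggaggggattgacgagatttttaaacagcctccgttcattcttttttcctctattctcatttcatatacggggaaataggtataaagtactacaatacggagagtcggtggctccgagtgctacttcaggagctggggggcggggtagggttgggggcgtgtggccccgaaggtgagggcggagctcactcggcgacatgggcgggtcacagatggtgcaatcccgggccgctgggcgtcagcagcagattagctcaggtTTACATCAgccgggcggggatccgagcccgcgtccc
Chac1: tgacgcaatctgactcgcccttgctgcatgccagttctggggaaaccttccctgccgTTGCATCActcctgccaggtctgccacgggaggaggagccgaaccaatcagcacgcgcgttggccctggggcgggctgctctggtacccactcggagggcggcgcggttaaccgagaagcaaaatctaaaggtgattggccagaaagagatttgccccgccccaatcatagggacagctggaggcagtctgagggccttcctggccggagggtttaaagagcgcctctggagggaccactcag
Asns: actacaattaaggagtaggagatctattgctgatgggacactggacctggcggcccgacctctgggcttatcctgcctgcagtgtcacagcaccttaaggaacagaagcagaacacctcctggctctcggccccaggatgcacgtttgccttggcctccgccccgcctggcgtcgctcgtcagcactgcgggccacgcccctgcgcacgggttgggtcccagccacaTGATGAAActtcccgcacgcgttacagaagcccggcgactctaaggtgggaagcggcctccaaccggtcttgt
Ddit4: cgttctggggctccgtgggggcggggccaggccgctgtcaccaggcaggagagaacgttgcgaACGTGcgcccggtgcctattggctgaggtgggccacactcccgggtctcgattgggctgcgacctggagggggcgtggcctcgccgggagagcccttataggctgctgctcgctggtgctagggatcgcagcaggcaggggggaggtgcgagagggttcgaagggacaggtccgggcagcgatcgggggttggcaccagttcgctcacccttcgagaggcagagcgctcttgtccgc

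Total counts ranged from 91976512 to 108395459 in JMML and from 47096464 to 61656272 in WT. An F closes the sample identifier of JMML replicates 1 and 2, and an M closes that of each remaining library. Xist had 54449 and 49961 counts in the 2 F libraries and at most 36 elsewhere, so the sexes of the groups differ in part, and JMML replicate 3 is the only male JMML library. Its identifier has the same stem as that of WT replicate 3, and the labels do not say what the stem means. Cell type markers differed widely between the groups. Markers counted as higher or lower are those called by the test described below. It called 12.4% of all tested genes higher and 13.8% lower. Summed levels of the 8 B-cell markers were at most 15.1 CPM in JMML and 101 to 409 in WT (8 of 8 lower), those of 8 T-cell markers 10.1 to 20.1 and 37.5 to 62.4 (7 of 8 lower), those of 8 megakaryocyte markers 18.5 to 38.8 and 310 to 973 (8 of 8 lower), and those of 7 erythroid markers 126 to 340 and 862 to 1248 (5 of 7 lower). Monocyte markers summed to 3346 to 6161 CPM in JMML and 2363 to 2609 in WT (5 of 8 higher), and 7 granulocyte progenitor markers to 3588 to 5272 and 2951 to 3403 (5 of 7 higher). Of the other lists, plasma cell markers had 3 of 7 lower (17.0 to 18.8 CPM in JMML, 62.8 to 177 in WT), endothelial and stromal markers 6 of 8 lower (975 to 1458 and 908 to 2836), mature neutrophil markers 3 of 8 higher (12217 to 22799 and 6769 to 13527), and dendritic cell markers 4 of 8 higher and 1 lower (194 to 267 and 114 to 124). Col1a1 made up most of the endothelial and stromal sums, at 923 to 1366 CPM in JMML and 550 to 2153 in WT. For the other 7 markers of that list, every JMML library lay below every WT library. No listed marker found in the tables was at 0 counts in all 6 libraries. In such mixed samples a change in the share of a cell type and a change in RNA per cell cannot be told apart, and the part these cell types play in the results below was not tested.

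Ddit4 averaged 10.8-fold higher in JMML. The 6 other ATF4 targets named above were not called, with JMML over WT at 1.88-fold for Chac1, 1.41 for Phgdh, 1.23 for Psat1, 0.959 for Trib3, 0.889 for Asns and 0.792 for Ddit3. Of the 9 members other than Ddit4, Atf4 itself was modestly higher, Sesn1 was lower and 7 were not called, which does not show that these 7 were unchanged. Levels are TMM-scaled CPM, a gene's counts relative to the scaled library total, and a gene is called when its adjusted p is under 0.05 (edgeR, quasi-likelihood F test, p adjusted by Benjamini-Hochberg over all 18097 tested genes). In the same fit 12.4% of tested genes were called higher, 13.8% lower and 26.2% in either direction. With Ddit4 included, 2 of 10 members were called higher and 1 lower, and nothing is read from that count because the members were chosen with this contrast known. Their median log2 fold change was 0.30, beside -0.02 over all tested genes. The JMML and WT values did not overlap in 5 members (47.5% of tested genes), 4 with JMML above (22.9% of tested genes) and 1 with JMML below (24.6%). The 4 include Ddit4, by whose values the set was chosen, so nothing is read from these counts either.

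**Figure D1:**
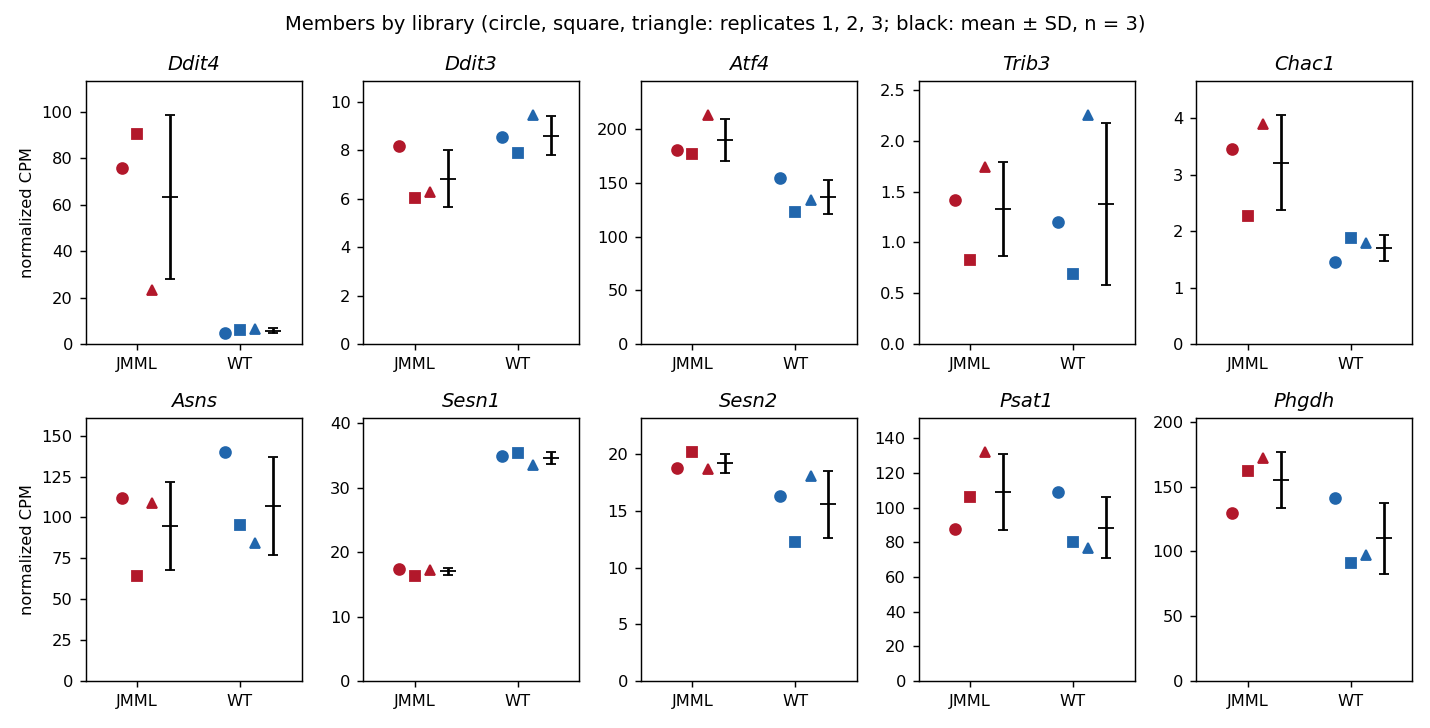
Normalized CPM (linear axes from 0) of each of the 10 genes in the 3 JMML libraries, in red on the left, and the 3 WT libraries, in blue on the right; circles, squares and triangles are replicates 1, 2 and 3 and black bars are the mean ± SD. Ddit4 is 23.3 to 90.3 CPM in JMML and at most 6.74 in WT, Sesn1 is lower in all 3 JMML libraries, and the groups overlap for Ddit3, Trib3, Asns, Psat1 and Phgdh.

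Ddit4 (REDD1 in older usage) encodes a protein that activates the TSC complex and so lowers mTORC1 activity; it lies at chr10:59949669-59951834 (GRCm38, minus strand) and has 1755 exonic bases. It had 75.9, 90.3 and 23.3 CPM in JMML replicates 1, 2 and 3, and 4.83, 5.96 and 6.74 CPM in WT replicates 1, 2 and 3. Every JMML library lay above every WT library, and the JMML libraries themselves spread 3.87-fold, with replicate 3 the lowest. The means were 63.2 ± 35.3 CPM in JMML and 5.84 ± 0.962 CPM in WT (SD, n = 3 each), a log2 fold change of 3.43 ± 0.48 SE. Of the 2245 genes called higher, 45 had a log2 fold change at least that large, Ddit4 included. That rank is a description and no test, since the set was chosen by these same values. The log2 fold change was 2.00 with the identifier letter as a covariate and 2.04 in the 4 M libraries only, fits in which the group difference rests on JMML replicate 3. In JMML, sex and the height of Ddit4 cannot be told apart, since replicates 1 and 2 are the female libraries. The summed monocyte markers had the same order of JMML libraries, at 5914, 6161 and 3346 CPM in JMML replicates 1, 2 and 3, against 2391, 2609 and 2363 CPM in WT. The low sum in replicate 3 came largely from Fn1 (2600, 2622 and 705 CPM in JMML) and F13a1 (1598, 1558 and 950 CPM). Taken singly, 3 of the 8 markers had that order. Replicate 3 was the lowest JMML library for 5 of them and replicate 1 for 3 (Ly6c2, Irf8 and Klf4). The part of these markers in the Ddit4 difference was not tested.

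Per kilobase of exon, Ddit4 was the third most abundant member in JMML and the eighth in WT. Mean levels per kilobase in JMML ran from Atf4 (80.7 ± 8.29 CPM per kb), Phgdh (62.3 ± 8.73), Ddit4 (36.0 ± 20.1), Asns (34.7 ± 9.80) and Psat1 (25.6 ± 5.2) down to Sesn2 (5.53 ± 0.239), Sesn1 (4.28 ± 0.149), Ddit3 (3.98 ± 0.684), Chac1 (1.96 ± 0.512) and Trib3 (0.624 ± 0.217; SD, n = 3). In this order the ranges of Ddit4 and Asns, of Asns and Psat1, and of Sesn1 and Ddit3 overlapped, and the other neighbours were separate. In WT the order was Atf4 (58.2 ± 6.86 CPM per kb), Phgdh (44.3 ± 11), Asns (39.1 ± 10.8), Psat1 (20.8 ± 4.12), Sesn1 (8.70 ± 0.240), Ddit3 (5.02 ± 0.460), Sesn2 (4.49 ± 0.855), Ddit4 (3.33 ± 0.548), Chac1 (1.04 ± 0.139) and Trib3 (0.650 ± 0.375). There the neighbours Atf4 and Phgdh, Phgdh and Asns, Ddit3 and Sesn2, Sesn2 and Ddit4, and Chac1 and Trib3 overlapped.

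Atf4, the transcription factor gene at chr15:80255184-80257541 (plus strand), had 181, 177 and 213 CPM in JMML replicates 1, 2 and 3, and 155, 123 and 134 CPM in WT. The groups did not overlap, but the lowest JMML library lay only slightly above the highest WT one. The means were 190 ± 19.5 CPM in JMML and 137 ± 16.2 CPM in WT, a log2 fold change of 0.47 ± 0.13 SE (edgeR adjusted p = 0.0366). That call depended on single choices. It ended when JMML replicate 1 (0.52), 2 (0.54) or 3 (0.40) was left out, and when WT replicate 2 (0.40) or 3 (0.49) was. It also ended with the identifier letter as a covariate (0.63), in M libraries only (0.67), with a block for replicate number (0.47), with the length trend removed (0.43) and with library totals as the scaling (0.29). The last scaling lowers the median of all genes by 0.18 on the log2 scale. These counts measure mRNA, so they carry no information on ATF4 translation or protein.

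Ddit3, Trib3 and Chac1, members that act in feedback or cell death downstream of ATF4, were not called by edgeR. Ddit3 (CHOP), a transcription factor of prolonged stress at chr10:127290774-127296288, had 8.16, 6.02 and 6.27 CPM in JMML and 8.52, 7.86 and 9.43 CPM in WT. These ranges overlap, with 2 of 3 JMML libraries below all WT ones (log2 fold change -0.34 ± 0.19 SE, 95% interval -0.78 to 0.11, edgeR adjusted p = 0.223). Ddit3 overlaps Mars, the methionyl-tRNA synthetase gene, on the opposite strand, and the counts of Mars were 1011% to 1876% of those of Ddit3; the strand setting of the counting is not given in the sources used here, so the Ddit3 values are uncertain. A further GENCODE entry named Ddit3 at the same place was not analysed here. Trib3, a pseudokinase that dampens ATF4 and Akt signalling (chr2:152337422-152344032), had 1.42, 0.827 and 1.74 CPM in JMML and 1.20, 0.690 and 2.25 CPM in WT. Its groups overlapped fully and it was scarce, at 36 to 158 counts a library (log2 fold change -0.06, 95% interval -1.19 to 1.07, edgeR adjusted p = 0.938). That interval does not exclude a change of over 2-fold in either direction. Chac1, which degrades glutathione (chr2:119351229-119354381), had 3.45, 2.27 and 3.89 CPM in JMML and 1.45, 1.88 and 1.79 CPM in WT. All 3 JMML libraries lay above WT, yet the difference just missed the threshold (log2 fold change 0.91 ± 0.28 SE, 95% interval 0.25 to 1.58, edgeR adjusted p = 0.0517). It passed after thinning to equal depth (0.96), in DESeq2's Wald test (0.92), with unfiltered counts and with JMML replicate 2 left out (1.12).

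The 3 amino acid synthesis genes did not pass the test either. Asns, asparagine synthetase (chr6:7675169-7693254), had 112, 64.0 and 109 CPM in JMML and 140, 95.4 and 84.5 CPM in WT. The groups interleaved, with the highest value in WT replicate 1 and the lowest in JMML replicate 2 (log2 fold change -0.17 ± 0.26 SE, 95% interval -0.78 to 0.44, edgeR adjusted p = 0.657). Psat1, phosphoserine aminotransferase (chr19:15904678-15947337), had 87.9, 106 and 132 CPM in JMML and 109, 80.3 and 76.4 CPM in WT. Only 1 JMML library lay above all WT libraries (log2 fold change 0.30, 95% interval -0.15 to 0.75, edgeR adjusted p = 0.280). Phgdh, phosphoglycerate dehydrogenase and the entry enzyme of serine synthesis (chr3:98313170-98339990), had 130, 162 and 172 CPM in JMML and 141, 91.4 and 97.3 CPM in WT. Again WT replicate 1 was the WT library that reached into the JMML range (log2 fold change 0.49 ± 0.19 SE, 95% interval 0.04 to 0.94, edgeR adjusted p = 0.0977), and without it Phgdh was called (0.76). Phgdh has near-identical pseudogenes: Gm7901, 98.7% identical over 1597 aligned bases, had counts equal to 11.8% to 13.6% of those of Phgdh, so some Phgdh reads may be counted elsewhere.

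Of the sestrins, stress proteins that hold back mTORC1 when leucine is scarce, Sesn1 was called lower and Sesn2 was not called. Sesn1 (chr10:41809935-41908424) had 17.4, 16.3 and 17.3 CPM in JMML and 35, 35.4 and 33.5 CPM in WT. All 3 JMML libraries lay well below all WT libraries, and the spread was small within either group (means 17.0 ± 0.592 CPM in JMML and 34.6 ± 0.957 CPM in WT; SD, n = 3 each). The log2 fold change was -1.02 ± 0.11 SE (edgeR adjusted p = 0.00280), and it was called in each of the 17 alternative analyses, between -1.21 and -0.94. Sesn2 (chr4:132492032-132510501) had 18.8, 20.2 and 18.7 CPM in JMML and 16.3, 12.3 and 18.1 CPM in WT. The JMML libraries were all above WT, by little (log2 fold change 0.30, 95% interval -0.09 to 0.70, edgeR adjusted p = 0.221). Sesn3, a sestrin known as a FoxO target and no member, had 5.36, 6.48 and 6.24 CPM in JMML and 6.77, 7.49 and 9.44 CPM in WT (log2 fold change -0.39, 95% interval -0.85 to 0.07, edgeR adjusted p = 0.179). The B-cell, T-cell, megakaryocyte and erythroid markers given above fell in the same libraries as Sesn1; their part in its decrease was not tested.

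**Figure D2:**
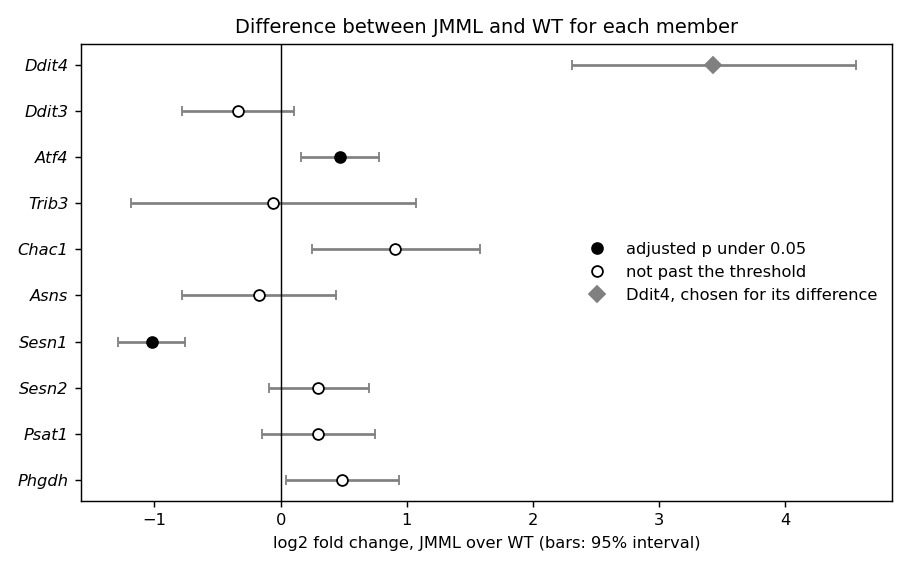
Log2 fold change of each of the 10 genes, JMML over WT, from edgeR, with 95% intervals as bars; filled circles passed an adjusted p of 0.05, open circles did not, and the grey diamond is Ddit4, which was chosen for its difference. Ddit4 stands at 3.43 and Sesn1 at -1.02, while the intervals of Ddit3, Trib3, Asns, Sesn2 and Psat1 cross 0. The bar of Ddit4 is a description and no test.

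Wider lists of genes of amino acid supply were drawn up from textbook roles. The share called was 5% of tRNA synthetases, 0% of serine and one-carbon genes and 20% of amino acid transporters, beside 26.2% of all tested genes. Of 20 cytosolic tRNA synthetase genes, many of them known ATF4 targets, 1 was called higher and 0 lower (median log2 fold change 0.06, but -0.12 with library totals as the scaling, and -0.06, -0.04 and 0.33 when JMML replicate 3, WT replicate 2 and WT replicate 1 were left out one at a time). The called gene was Qars, for glutaminyl-tRNA, at 121, 116 and 115 CPM in JMML and 89.3, 80.7 and 83.3 CPM in WT (0.47 ± 0.09 SE, edgeR adjusted p = 0.0121), a call that ended with library totals alone (0.29), with the letter, in M libraries only and without WT replicate 2. Of 7 tested genes of serine and one-carbon metabolism, 0 were called by edgeR, limma-voom or the DESeq2 Wald test, and the median was 0.32 (0.14 with library totals as the scaling and 0.18 when JMML replicate 3 or WT replicate 2 was left out). An unadjusted edgeR p under 0.05 was reached by 2 of the 7, Mthfd1 (log2 fold change -0.56, edgeR adjusted p = 0.0882) and Shmt1 (0.41, edgeR adjusted p = 0.106), both named after their values were seen. With library totals as the scaling 1 was called lower, and without JMML replicate 1 there was 1 call, a higher one. Of 10 amino acid transporters, 1 was higher and 1 lower (median -0.13). That median was -0.31 with library totals, -0.07, -0.22 and 0 when JMML replicate 1, JMML replicate 2 and WT replicate 1 were left out in turn, and -0.02 with the length trend removed. Slc7a11, the cystine importer, was higher at 9.94, 6.69 and 7.93 CPM in JMML and 5.98, 3.53 and 3.77 CPM in WT (0.89 ± 0.27, edgeR adjusted p = 0.0491), and lost its call in 10 of 17 alternatives. Slc6a9, a glycine transporter, fell to 3.03, 1.45 and 0.737 CPM in JMML, against 22.3, 12.7 and 17.3 CPM in WT (-3.33 ± 0.51, edgeR adjusted p = 0.00577). Slc6a9 is known to serve heme synthesis in red cell precursors, whose markers fell in the same libraries. The part of these cells in the Slc6a9 decrease was not tested. WT replicate 1 was the highest of the 6 libraries for 8 of these 10 transporters and for 11 of the 20 synthetases, against 14.5% of all tested genes.

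Of 8 genes for the stress kinases upstream of ATF4 and their feedback, 0 were higher and 2 were lower (median 0.01, between -0.17 and 0.11 in the 17 alternatives), but 1 was called higher with the letter and in M libraries only. Ppp1r15a (GADD34), the feedback phosphatase subunit that ATF4 signalling induces, fell to 21.6, 17.1 and 12.5 CPM in JMML, against 36.7, 31.4 and 35.1 CPM in WT (-1.01 ± 0.21, edgeR adjusted p = 0.0140), and kept its call in all 17 alternatives. Eif2ak1, the heme-regulated kinase, was at 78.4, 80.6 and 80.7 CPM in JMML and 102, 95.3 and 96.3 CPM in WT (-0.29 ± 0.09, edgeR adjusted p = 0.0478); this call ended in 14 of 17 alternatives. Of 20 tested further partners and targets of ATF4, 5 were higher and 0 lower. That is 25% called, the same share as in the list of 8 above, beside 26.2% of all tested genes. The median was 0.15, but -0.03 with library totals as the scaling, 0.33 without JMML replicate 3 and 0.41 without WT replicate 3. It was 0.06 with the letter and 0.09 in M libraries only. Atf3, a stress factor of the same family, had 7.32, 8.24 and 6.17 CPM in JMML and 2.89, 2.89 and 2.20 CPM in WT (1.44 ± 0.22, edgeR adjusted p = 0.00575). Cebpb, a dimer partner of ATF4 that is also a myeloid factor, had 42.4, 67.6 and 41.3 CPM in JMML and 25.7, 16.6 and 18.4 CPM in WT (1.32 ± 0.25, edgeR adjusted p = 0.0108). Monocyte and granulocyte progenitor markers were higher in the same libraries, and their part in the Cebpb difference was not tested. Ero1l, an oxidase of the endoplasmic reticulum, was also higher (0.85 ± 0.13, edgeR adjusted p = 0.00631), as were Herpud1 (0.54) and Pycr1 (0.68), named after their values were seen. Instead of 5, the number called higher was 2 with the letter, 1 in M libraries only, and 3 under the 50-count filter, the block, library totals or the loss of any of JMML replicates 2 and 3 and WT replicates 1 and 2.

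**Figure D3:**
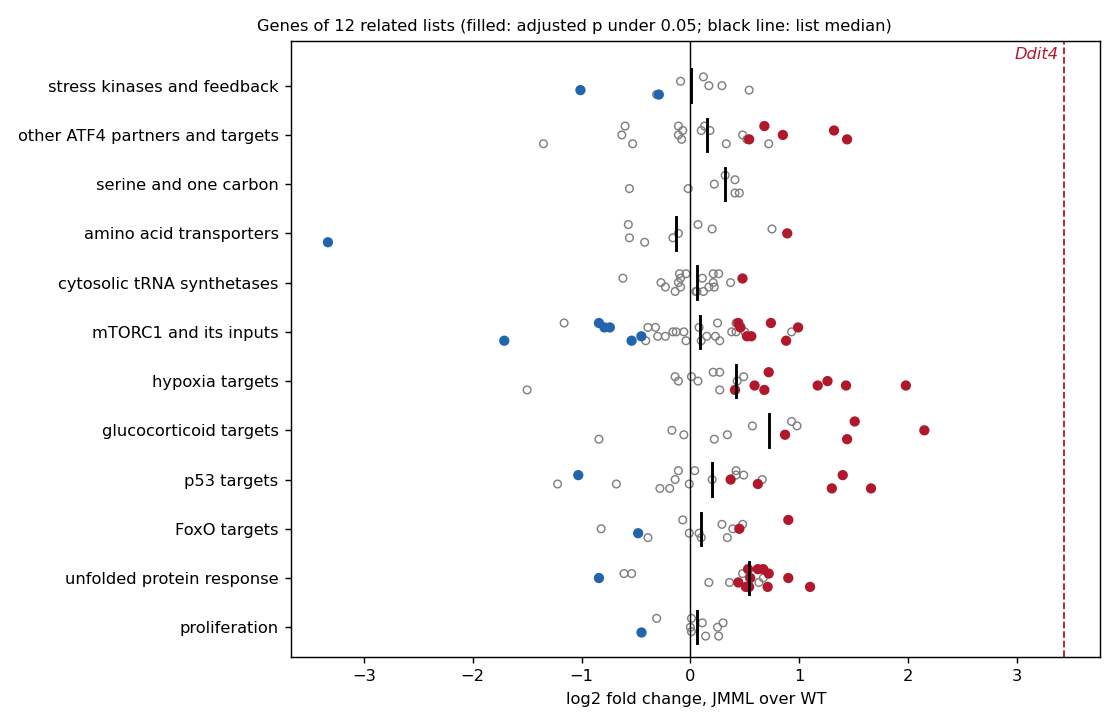
Log2 fold change, JMML over WT, of every tested gene in 12 lists related to the members; filled points passed an adjusted p of 0.05 (red higher, blue lower), open points did not, black lines are list medians and the dashed line is Ddit4 at 3.43. No gene of these lists reaches the Ddit4 value, the tRNA synthetases centre on 0.06, and the unfolded protein response list has its median at 0.54.

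Lists for the other known inputs to Ddit4 were read next to these, beside the 26.2% of all tested genes that were called. Of 12 glucocorticoid targets, 4 were higher and 0 lower (33.3% called, median 0.72). Fkbp5, a chaperone of the glucocorticoid receptor, had 219, 267 and 151 CPM in JMML and 71.3, 83.9 and 68.2 CPM in WT (1.51 ± 0.21, edgeR adjusted p = 0.00443). Tsc22d3 (GILZ) had 174, 209 and 114 CPM in JMML and 49.3, 71.6 and 62.9 CPM in WT (1.44 ± 0.24, edgeR adjusted p = 0.00716), and Cebpd was higher by 0.87 (edgeR adjusted p = 0.00889). The 4th, Dusp1, named after its values were seen, had 103, 156 and 27.5 CPM in JMML and 14.6, 25.9 and 24.1 CPM in WT. As for Ddit4, JMML replicate 3 was the lowest JMML library for 10 of the 12, against 37.5% of all tested genes, and 8 of the 12 had the same order of JMML libraries as Ddit4 (replicate 2, then 1, then 3), against 16.0%. This is not particular to the list: JMML replicate 3 was also lowest for 7 of 8 endothelial and stromal markers, 5 of which had that order, and for 5 of 8 monocyte markers, 3 of which had it. Of the lists read beside it, 2 of 18 hypoxia targets, 1 of 19 p53 targets and 3 of 13 FoxO targets had that order. So did 5 of the 20 further partners and targets of ATF4. What the order reflects was not tested. The list median turned negative once the identifier letter was a covariate (-0.16) and among M libraries (-0.12), whereas Tsc22d3 stayed positive (0.90 and 0.94). These fits take their JMML side from replicate 3 alone, so they cannot separate sex from that single library. The median remained positive when JMML replicate 1 (0.65), 2 (0.51) or 3 (0.92) was left out.

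Of 18 hypoxia targets, 8 were higher and 0 lower (44.4% called, median 0.42, and 0.24 with library totals as the scaling). Slc2a1, the glucose transporter GLUT1, had 36.3, 36.5 and 34.9 CPM in JMML and 12, 12.6 and 15.5 CPM in WT (1.43 ± 0.14, edgeR adjusted p = 0.00234). Egln3, an oxygen-sensing hydroxylase, and Mxi1 had log2 fold changes of 1.17 ± 0.17 and 0.72 ± 0.11 (edgeR adjusted p of 0.00501 and 0.00559). JMML replicate 3 was the lowest JMML library for 6 of these 18, against 37.5% of all tested genes. The 8 higher were 5 with the letter. Of 19 p53 targets, 5 were higher and 1 was lower (31.6% called, beside 26.2% of all tested genes). Their median was 0.20, and 0.01 with library totals, 0.05 with the letter, 0.09 in M libraries only and 0.44 without WT replicate 3. Mdm2, Bax, Xpc and Zmat3 were named after their values were seen. Mdm2 was at 0.04 (edgeR adjusted p = 0.841) and was not called. Bax (0.62, edgeR adjusted p = 0.0222) and Xpc (0.37, edgeR adjusted p = 0.0293) were higher, and Zmat3 (-1.03, edgeR adjusted p = 0.0364) was lower. Pmaip1 (NOXA) at 1.40 ± 0.20, the cell cycle inhibitor Cdkn1a at 1.3 ± 0.20 and Perp at 1.66 ± 0.30 led the higher p53 targets (edgeR adjusted p of 0.00482, 0.00608 and 0.00944). Only 3 were higher in M libraries, with the letter, with the block, with library totals or with WT replicate 2 left out. Among 13 FoxO targets, 2 were higher, Cited2 (0.90 ± 0.19) and Ccng2 (0.45 ± 0.11), and 1 lower, Gabarapl1 (-0.48 ± 0.13; edgeR adjusted p of 0.0143, 0.0260 and 0.0330); the calls of these 3 ended in 2, 8 and 10 of 17 alternatives, and with the letter or without WT replicate 2 none of the 13 was called. The FoxO median of 0.10 ranged from -0.09 with library totals to 0.38 without JMML replicate 3.

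The unfolded protein response covers the other arms of the endoplasmic reticulum stress system. Of its 19 genes, 11 were higher and 1 lower (63.2% called, beside 26.2% of all tested genes, median 0.54). Edem1, which clears misfolded proteins, had 323, 397 and 354 CPM in JMML and 182, 198 and 195 CPM in WT (0.90 ± 0.12, edgeR adjusted p = 0.00401). Xbp1 had log2 fold change 0.72 ± 0.10 (edgeR adjusted p = 0.00433) and Sdf2l1, an ER chaperone, 1.1 ± 0.21 (edgeR adjusted p = 0.0105). JMML replicate 3 was the highest of the 6 libraries for 12 of the 19, against 15.9% of all tested genes. Any link between this list and Ddit4 was not tested. The number higher dropped to 2 when WT replicate 2 was left out, to 4 with library totals, to 5 when either of WT replicates 1 and 3 was left out, and to 6 with the block or when either of JMML replicates 2 and 3 was left out, while the median was 0.35 with library totals, 0.83 with the letter, 0.86 in M libraries only and between these values in the other alternatives. Of 10 proliferation genes, 0 were higher and 1, Mki67, was lower (10% called). Mki67 was at -0.45 ± 0.13 (edgeR adjusted p = 0.0377), a call that ended in 11 of 17 alternatives. The list median was 0.06, from -0.12 with library totals to 0.35 in M libraries only.

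Around mTORC1, which Ddit4 and the sestrins restrain, 7 of 34 genes were higher and 6 lower (38.2% called, beside 26.2% of all tested genes, median 0.09). The Ragulator scaffold genes Lamtor1, Lamtor5 and Lamtor4, which dock mTORC1 on the lysosome, were higher, by 0.88 ± 0.14, 0.74 ± 0.13 and 0.99 ± 0.18 (edgeR adjusted p of 0.00585, 0.00849 and 0.0100). Lamtor1 had 84.7, 83.0 and 91.0 CPM in JMML and 51.0, 38.6 and 51.2 CPM in WT. The genes of the TSC complex, on which Ddit4 is known to act, were named after their values were seen. Tsc1 had 33.2, 32.9 and 32.1 CPM in JMML and 47.2, 50.3 and 45.6 CPM in WT (-0.54 ± 0.11, edgeR adjusted p = 0.0114). Tsc2 (-0.23, edgeR adjusted p = 0.115) and Tbc1d7 (0.42, edgeR adjusted p = 0.126) were not called. The remaining called genes of the list were also named after their values were seen. Rragc (0.44), Sec13 (0.56), Fnip1 (0.46) and Bmt2 (0.52) were higher. Nprl3 (-0.84), Wdr59 (-0.74), Rptor (-0.45), Rragd (-1.71) and Rragb (-0.79) were lower. Lamtor4 and Lamtor5 lost their calls with the letter and in M libraries only, where 1 of the 34 was higher and 1 lower. With library totals 3 were higher and 8 lower, and with the block 4 and 3. Unfiltered counts gave 7 higher and 3 lower. The median was -0.09 with library totals and -0.02 without WT replicate 2, and 0.16, 0.05, 0.16 and 0.17 when JMML replicate 1, JMML replicate 2, WT replicate 1 and WT replicate 3 were left out in turn. In counts of calls, leaving out JMML replicate 2 gave 3 and 3, JMML replicate 3 gave 5 and 3, WT replicate 1 gave 4 and 4, WT replicate 2 gave 4 and 3, and WT replicate 3 gave 3 and 4. Ddit4l, the close relative of Ddit4, was scarce, at 0.114 to 0.195 CPM in JMML and 0.185 to 0.516 in WT, and was not called.

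The genes with the profile most like that of Ddit4 over the 6 libraries are given as a description. Likeness was the root mean square difference of log2 CPM after removing each gene's own mean over the 6 libraries, among 11352 other tested genes with a mean log2 CPM of at least 2. The nearest were the chemokine gene Cxcl16 (0.340), the surface receptor gene Havcr2 (0.355), Strip2 (0.429), Gpr141b (0.453) and the homeodomain gene Hopx (0.471). This measure largely follows the size of the JMML difference, for which Ddit4 was chosen, so the distances of the other members, 1.42 (Chac1) to 2.22 (Sesn1), carry no further information on ATF4. Cxcl16 had 10.9, 15.9 and 5.71 CPM in JMML and 1.17, 1.67 and 1.20 CPM in WT. Havcr2 had 46.7, 36.9 and 16.7 CPM in JMML and 3.60, 4.71 and 3.17 CPM in WT. In both, as in Ddit4, JMML replicate 3 was the lowest JMML library and still above all WT libraries.

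**Figure D4:**
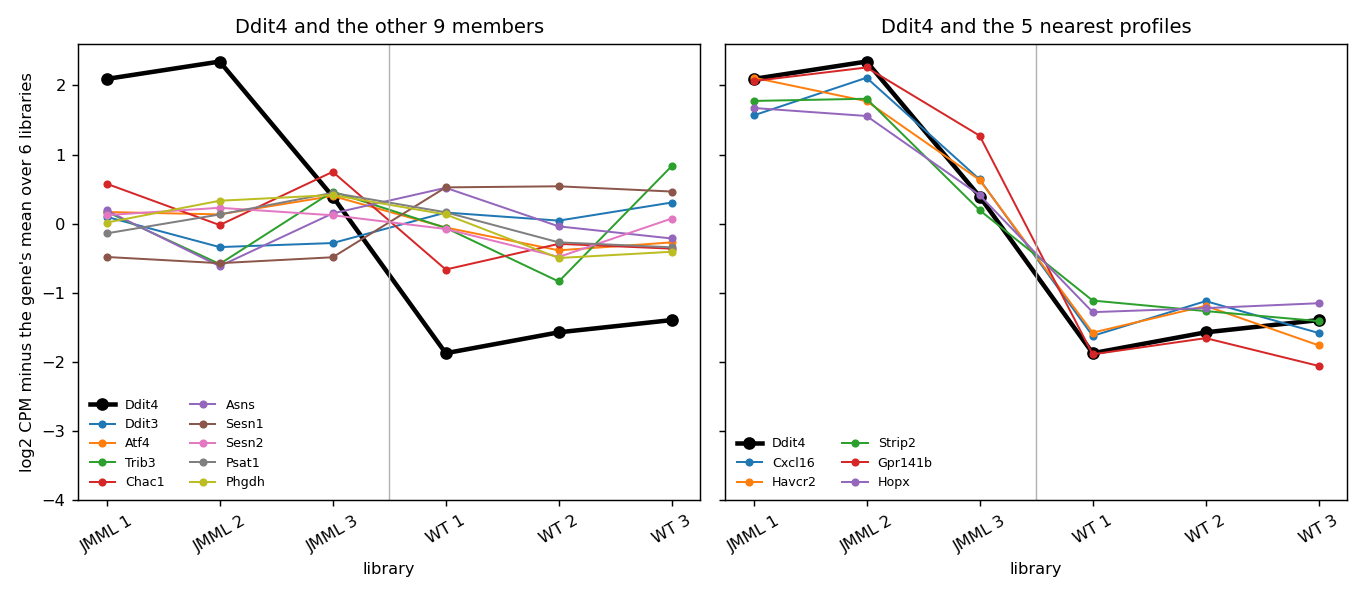
Log2 CPM minus each gene's mean over the 6 libraries, for Ddit4 (black) with the other 9 members (left) and with the 5 nearest profiles (right); lines only join the values of 1 gene, and JMML libraries stand left of WT. Ddit4 stands apart from the other members in JMML replicates 1 and 2 and in all WT libraries, and follows Cxcl16, Havcr2, Strip2, Gpr141b and Hopx.

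**Figure D5:**
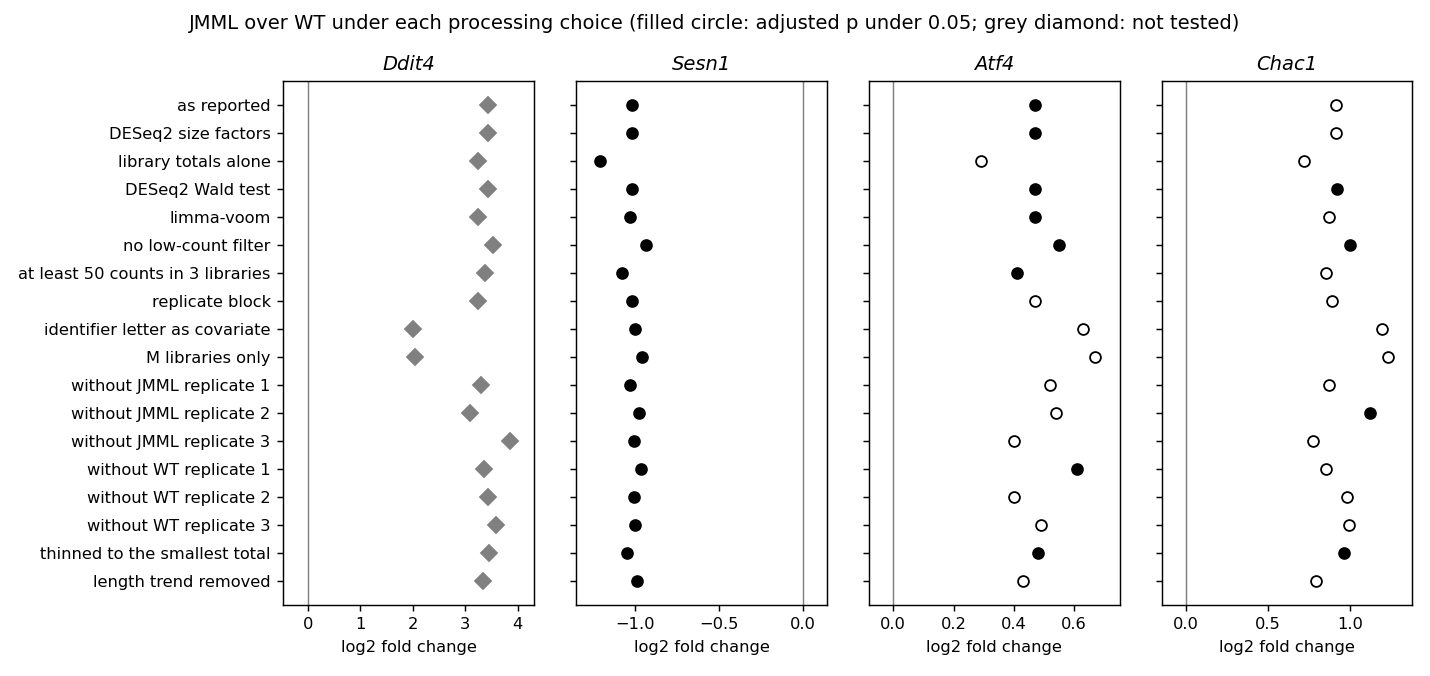
Log2 fold change, JMML over WT, of Ddit4, Sesn1, Atf4 and Chac1 as reported and in 17 alternative analyses; for Sesn1, Atf4 and Chac1 filled points had an adjusted p under 0.05, grey diamonds for Ddit4 carry no test, and each panel has its own axis. Ddit4 lies between 2.00 and 3.85 and Sesn1 between -1.21 and -0.94, whereas the Atf4 call ends in 10 alternatives and Chac1 gains a call in 4.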

How the data were processed

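Per the labels' protocols, libraries of 3 JMML and 3 WT samples were made with a stranded, ribosome-depleting total RNA kit. The deposited tables hold unnormalized whole-number counts for each Ensembl gene. The submitters' processing notes name the build GRCm38 and, with no role or order, DESeq2 1.22.2, R 3.5.0, StringTie 1.3.3b, Picard 2.0.1, STAR 2.5.3a and bcl2fastq 2.18.0.12. Which counter, annotation and strand setting were used is not given in the sources used here. Symbols, positions and exon lengths came from GENCODE vM21 and matched 45229 of 46078 identifiers. Among counts of 1 to 20, 51.6% to 58.8% were even. Every pair of libraries differed beyond counting noise, with a chi-square over its degrees of freedom of at least 118.

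Counts were tested with edgeR 4.0.16 (R 4.3.3) after filterByExpr and TMM scaling, group only, with Benjamini-Hochberg adjustment over 18097 genes. Dividing a log2 fold change's absolute size by √F gave its standard error. 1 count was worth 0.00951 to 0.0192 CPM. Alternatives were DESeq2 1.42.0 (size factors or Wald test), limma 3.58.1 voom, library totals, other filters, the replicate block, the identifier letter, M libraries only, thinning, a length correction and each library left out. Copies were sought with blastn 2.17.0 (at least 95% identity over 200 bases). Named genes were all members, up to 3 called genes with the smallest p of each of 12 lists, and the 5 profiles nearest to Ddit4. The members and lists were chosen with earlier results of these data known. Of 270 list symbols, 2 had no identifier in the tables. Figures were drawn with matplotlib 3.10.9 and tables joined with pandas 2.3.3 under Python 3.11.15.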

Additional observations from a re-analysis of the deposited data

How the results depend on the processing

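Of the 9 genes other than Ddit4, 2 were called as reported and 1 to 3 in the 17 alternatives, with Sesn1 called in every one. Over all genes, 4737 were called as reported, 2219 with the identifier letter as a covariate, 2310 in M libraries only and between 2203 (without WT replicate 2) and 4003 (without JMML replicate 1) with single libraries left out, with 3136 without WT replicate 1 and 3043 without JMML replicate 2. The cause of these drops beyond the smaller samples was not tested. Scaling by library totals changed the share of calls that were higher to 27.0%, against 47.4% as reported, with a shift of -0.18 (log2) in the median gene. The replicate block gave 2809 calls. Same-numbered samples did not deviate together (correlations of -0.199, 0.0453 and -0.143 for numbers 1, 2 and 3), so the numbers were not taken as pairs, although number 3 has the same identifier stem in both groups. No other call of a member but that of Atf4 changed with the block. Asns, at -0.17 as reported, turned positive when JMML replicate 2 (0.06) or WT replicate 1 (0.13) was left out, within a range of -0.29 to 0.13 over single libraries, and also with the letter (0.03) and among M libraries (0.06). Trib3, at -0.06, turned positive after thinning (0.02), with unfiltered counts (0.01), in limma-voom (0.00), with the letter (0.33), among M libraries (0.36), with the block (0.04) and when JMML replicate 2 (0.21) or WT replicate 3 (0.52) was left out, within a range of -0.39 to 0.52 over single libraries. Neither was called anywhere, and the cause of the turns was not tested. Of 27 called genes that the text names from the lists by rule, 14 kept their call in every alternative and 0 changed sign. Depth limits Trib3 most, at 36 to 158 counts a library.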
